A study of Mus musculus with 48 samples.

Results

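The response effect, responder minus non-responder, was compared between 2 mouse tumour lines as a difference of differences, the AB1 effect minus the Renca effect, gene by gene. All 48 of the 48 libraries in the series entered, placed in 4 groups of 12 by their titles. AB1 is a mesothelioma line and Renca a kidney cancer line, and each was grown under the skin of female Balb/c mice aged 8 to 9 weeks. Whole AB1 tumours were removed on day 8 and whole Renca tumours on day 10, ahead of an antibody treatment directed at CTLA4 plus PD-L1 that mice of all 4 groups received. Responder and non-responder name the later outcome of the mouse, with 1 mouse to a library. Each line is 1 transplanted cell line in 1 inbred strain, and the RNA is that of whole tumours, host cells included. The genes described below are those whose response effect was opposite in sign in the lines or was present in 1 line only, and the choice among them used their measured effects.

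CTLA4 and PD-L1 are inhibitory molecules of T cell responses, and blocking them releases T cells that already recognise tumour antigens. Tumours that hold T cells, interferon gamma signalling and antigen presentation before treatment are known to respond more often, while activated fibroblasts and the matrix they lay down are known from several tumour types to accompany resistance. Whether the same transcripts mark responders in different tumours is the question that the difference of the response effects addresses.

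Library totals ran from 22.4 to 27.8 M counts in AB1 non-responders, 22.9 to 24.2 M in AB1 responders, 17.0 to 24.8 M in Renca non-responders and 16.4 to 23.004 M in Renca responders (M for mega). The kidney transcripts Pax2, Pax8 and Cdh16 had medians of 18.1, 48.6 and 240.2 CPM (counts scaled to library size) in the 24 Renca tumours and 0, 0.0386 and 0 in the 24 AB1 tumours, while Lhx1 was near 0 in both. The mesothelial markers Upk3b, Calb2 and Gpm6a had medians of 0, 0.0182 and 0.158 CPM in AB1 and Wt1 one of 1.42, so that these markers of the labelled cell type were near absent from AB1 tumours. AB1 responder 12 stood apart: of 4634 genes that passed as lower in AB1 responders and were tested for the difference it had the highest responder value in 53.1%, and of 4557 that passed as higher it had the lowest in 55.5%. Values without this library are given beside the main counts and those of most gene lists. The lines were run on flow cells of their own, so tumour line, day of removal and flow cell cannot be told apart in any level set between the lines, while response was balanced over the 2 flow cells of each line. The RNA absorbance ratio 260/230 moved with response in both lines and in opposite directions, with a median of 2.205 in AB1 responders against 2.07 in AB1 non-responders, and 2.01 in Renca responders against 2.16 in Renca non-responders.

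The response effect differed between the lines for 7441 of 16509 genes, or 45.1% (edgeR's quasi-likelihood test over all 48 libraries, Benjamini-Hochberg adjusted p under 0.05). The AB1 effect was the more positive for 3048 genes (18.5%) and the more negative for 4393 (26.6%), and the difference reached 1 on the log2 scale for 645 and 609 of them. Without AB1 responder 12 the difference passed for 8138 genes and the AB1 response for 9764. In a fit of each line alone, 9194 of 15388 genes (59.7%) passed in AB1, 29.6% higher and 30.1% lower in responders, and 3027 of 15409 (19.6%) in Renca, 11.6% higher and 8.01% lower. Over 11972 genes with a mean of at least 1 log2 CPM in both lines, the SD of the response effects across genes was 0.55 in AB1 and 0.20 in Renca, and the effects of the lines correlated at r = 0.53 across genes, which are not independent replicates. The median difference over all tested genes was -0.07, and -0.04 with DESeq2 size factors or with scaling within each line. A further 713 genes (4.32%) passed for the difference and in neither line alone. Among those at a mean of at least 1 log2 CPM in both lines, the AB1 value was negative for 375 and positive for 13. The 375 had small median changes, -0.08 in AB1 and 0.05 in Renca, and a median difference of -0.18. Within the first flow cells of both lines 5167 genes passed, and within the second flow cells 3286, with 2229 and 2269 of them more positive in AB1 and 2938 and 1017 more negative, so that the balance turned in the second. With a pan-leukocyte score of each library as a covariate, the difference passed for 2 genes (470 before adjustment at 0.05, in edgeR as the 1 tool run). That score, the mean log2 CPM of 13 leukocyte transcripts, ran from 6.47 to 7.59 in AB1 non-responders and from 7.62 to 8.74 in AB1 responders, without overlap, and from 6.66 to 7.40 and 7.08 to 7.84 in the Renca groups, so leukocyte content and response cannot be told apart in AB1. In these whole-tumour libraries fewer cells of a type and less RNA per cell cannot be told apart either.

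**Figure D1:**
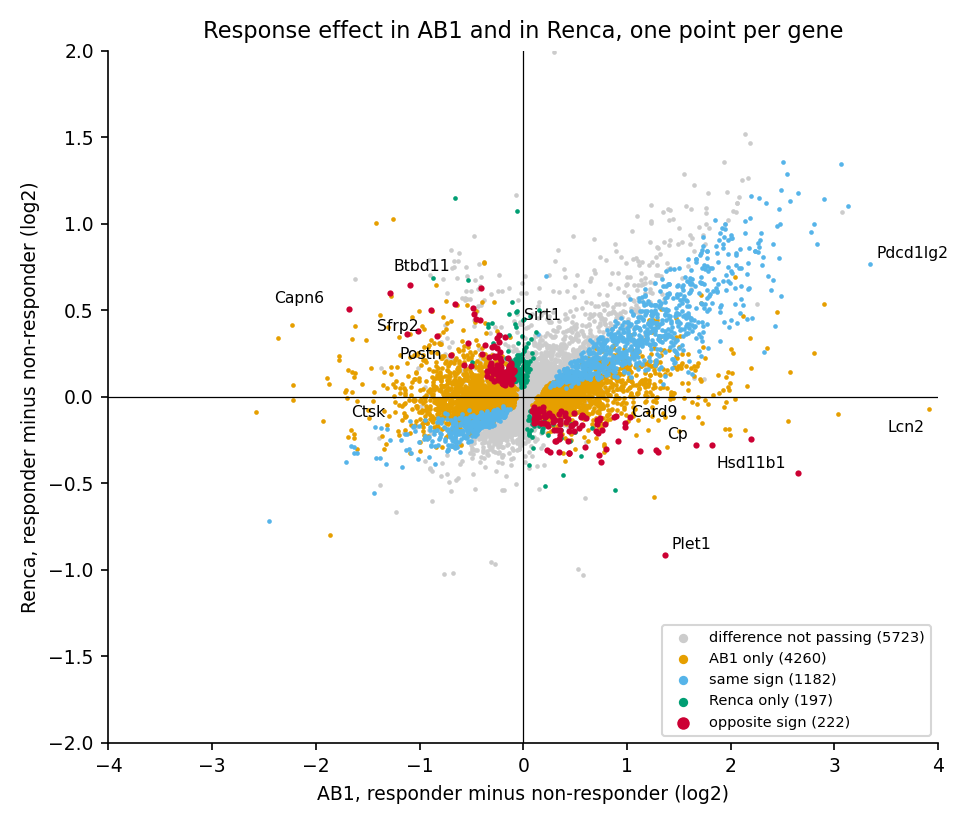
Response effect of each gene in AB1 (x axis) and in Renca (y axis), as log2 fold change of responders against non-responders from the fit of each line, for 11584 genes at a mean of at least 1 log2 CPM in both lines, leaving out those that passed for the difference and in neither line alone. Colours mark the classes of the difference, with the genes of opposite sign in red, and 3 genes lie outside the axes. The AB1 axis spans a range that is larger than that of the Renca axis, and the red points lie close to the horizontal line.

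Of 2186 genes that passed in both lines, 1943 had the same sign and 243 the opposite sign, and all 243 passed for the difference, which is 1.47% of the tested genes and 3.27% of those with a passing difference. Responders were higher in AB1 and lower in Renca for 110 of them and lower in AB1 and higher in Renca for 133. The opposed effects were small, with a median size of 0.26 in AB1 and 0.15 in Renca. Both effects reached 0.25 in 57 genes, 0.5 in 12 and 1 in 0. With the RNA purity ratios as covariates, 224 genes passed in Renca and 17 were of opposite sign. In the first flow cells 0 genes passed in Renca (2803 before adjustment at 0.05, in edgeR as the 1 tool run), and in the second flow cells 53 genes were of opposite sign. With 1 estimate of the spread for both lines 76 were, and without AB1 responder 12 there were 274. The part of RNA purity in these calls was not tested.

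Among genes higher in AB1 responders and lower in Renca responders, 6 had the smallest p of the difference at a mean of at least 1 log2 CPM in both lines, namely Card9, Fuca2, Hsd11b1, Scly, Cp and Eya2. Card9 (chr2:26352176-26360918) encodes the adaptor that passes signals from C-type lectin receptors of myeloid cells to NF-kB. Its level, given here and below as the lowest, median and highest CPM of the 12 libraries of a group, was 14.3, 18.3 and 21.6 in AB1 non-responders, 23.3, 32 and 44 in AB1 responders, 68.8, 75.3 and 79.8 in Renca non-responders and 61.6, 67.8 and 74.1 in Renca responders. All AB1 responders lay above all AB1 non-responders, while the Renca groups overlapped and 12 of 12 Renca responders lay under the non-responder median. The log2 change was 0.98 ± 0.10 (SE) in AB1 and -0.15 ± 0.03 in Renca, and the difference was 1.08 ± 0.10 (edgeR's quasi-likelihood test, adjusted p = 3.12e-09). The changes of a line come from its own fit and the difference from the fit of all 48 libraries, so they do not subtract exactly. The gap leaned toward more negative differences. The median AB1 effect over tested genes was -0.02 in its own fit and -0.09 in the fit of all libraries. The Renca medians were -0.006 and -0.013.

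Hsd11b1 (chr1:193221634-193264075), the enzyme that regenerates active glucocorticoid inside cells, had CPM of 7.01, 15.3 and 30.2 in AB1 non-responders and 31.3, 55 and 83.6 in AB1 responders. In Renca the values were 15.4, 18.4 and 21.8 in non-responders and 12.3, 15.8 and 18.1 in responders. The AB1 groups did not overlap and the Renca groups did, with 12 of 12 AB1 responders above and 12 of 12 Renca responders under the median of their non-responders. The changes were 1.82 ± 0.20 and -0.28 ± 0.08, and the difference was 2.05 ± 0.21 (edgeR adjusted p = 7.61e-09).

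Cp (chr3:19957054-20009145) encodes ceruloplasmin, a copper-carrying ferroxidase made by liver and by some epithelia. It had CPM of 37.1, 53.4 and 83.5 in AB1 non-responders, 60.3, 169.8 and 289 in AB1 responders, 1010.1, 1279.8 and 1642 in Renca non-responders and 845, 1049 and 1180.4 in Renca responders. Renca tumours of either outcome lay far above all AB1 tumours, and responders moved toward the other line in both. The changes were 1.66 ± 0.20 in AB1 and -0.28 ± 0.07 in Renca. Eya2, a transcriptional co-activator that also has phosphatase activity, went from a median of 0.949 to 4.04 CPM in AB1 and from 90.7 to 76.3 in Renca. Its changes were 2.20 ± 0.31 and -0.24 ± 0.07. Fuca2, a secreted fucosidase, went from a median of 43.6 to 92.4 CPM in AB1 and from 252 to 239 in Renca, where its change was -0.11 (edgeR adjusted p = 0.0267). Scly, which splits selenocysteine for reuse of its selenium, changed by 0.89 ± 0.10 in AB1 and -0.11 ± 0.03 in Renca. With the RNA purity ratios as covariates the difference passed for all 6 genes and the Renca change for none, with an adjusted p of 0.0531 for Card9 in edgeR.

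Further genes of this direction were chosen after their values were seen. Plet1 (chr9:50494525-50505482), a surface protein of placental and epithelial progenitor cells, changed by over 0.5 in both lines. It had CPM of 0.834, 2.24 and 6.42 in AB1 non-responders, 2.31, 5.97 and 14.7 in AB1 responders, 2.36, 4.63 and 12.8 in Renca non-responders and 0.65, 2.5 and 5.33 in Renca responders. All 4 groups overlapped, with 12 of 12 AB1 responders above and 11 of 12 Renca responders under the non-responder median. Its changes were 1.37 ± 0.38 and -0.92 ± 0.25, and the difference was 2.24 ± 0.46 (edgeR adjusted p = 0.000131). Asgr2, a subunit of the asialoglycoprotein receptor, changed by 0.83 ± 0.28 in AB1, where its mean level was 0.42 log2 CPM, and by -0.73 ± 0.17 in Renca. Tarm1, an activating receptor of neutrophils and macrophages, changed by 2.65 ± 0.38 and -0.44 ± 0.11. The organic anion transporter Slco4a1 changed by 0.73 ± 0.10 and -0.34 ± 0.08, and Rnf43, a ubiquitin ligase that removes Wnt receptors from the cell surface, by 1.12 ± 0.29 and -0.31 ± 0.06. Aqp9, a channel for water and glycerol, changed by 1.28 ± 0.22 and -0.31 ± 0.09, and Plin2, which coats lipid droplets, by 0.44 ± 0.14 and -0.32 ± 0.08. Flt1, a receptor for vascular endothelial growth factor, changed by 0.44 ± 0.10 and -0.20 ± 0.05 and was the only one of 14 tested blood endothelium genes with opposed calls, while Kdr, the other main receptor of that factor on endothelium, had values of -0.01 and -0.04 that passed in neither line.

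In the other direction, 9 of the 12 genes whose effects reached 0.5 in both lines were lower in AB1 responders and higher in Renca responders. Btbd11, a protein with ankyrin repeats and a BTB domain, had CPM of 7.52, 10.9 and 15.9 in AB1 non-responders, 3.09, 4.41 and 10.5 in AB1 responders, 0.761, 2.16 and 3.01 in Renca non-responders and 1.81, 3.62 and 4.75 in Renca responders. All 12 AB1 responders lay under their non-responder median and 11 of 12 Renca responders above theirs, and both pairs of groups overlapped. Capn6, a calpain family member that lacks protease activity and binds microtubules, had CPM of 11.7, 35.4 and 63.9 in AB1 non-responders and 6.3, 8.06 and 29 in AB1 responders, against 5.95, 11.3 and 16 and 10.2, 14.8 and 20.3 in Renca. AB1 responder 12 was the highest AB1 responder for both genes. The changes were -1.09 ± 0.16 and 0.64 ± 0.17 for Btbd11 and -1.68 ± 0.25 and 0.51 ± 0.16 for Capn6 (edgeR adjusted p of the difference = 2.75e-07 and 3.17e-07). Apart from St18, the other 7 genes of this set were chosen after their values were seen. Fbln7, a fibulin of the matrix, changed by -1.28 ± 0.23 in AB1 and 0.60 ± 0.21 in Renca, and Cpxm1, a secreted carboxypeptidase-like protein, by -0.66 ± 0.19 and 0.54 ± 0.14. Sfrp2, a secreted modulator of Wnt signalling, had median CPM of 33.2 and 17.9 in AB1 non-responders and responders and 51.3 and 64.4 in Renca, and changed by -0.89 ± 0.31 and 0.50 ± 0.13. Within the second flow cells the difference of Sfrp2 was -0.94 and did not pass (edgeR adjusted p = 0.092). The remaining 4 were under a mean of 1 log2 CPM in at least 1 line, namely the protocadherin Pcdh20, the cell cycle inhibitor Cdkn1c, the neurotrophin Bdnf and the transcription factor St18. With the RNA purity ratios as covariates, 5 genes of opposite sign were lower in AB1 responders, against 133 without them. Those higher in AB1 responders numbered 12, against 110.

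**Figure D2:**
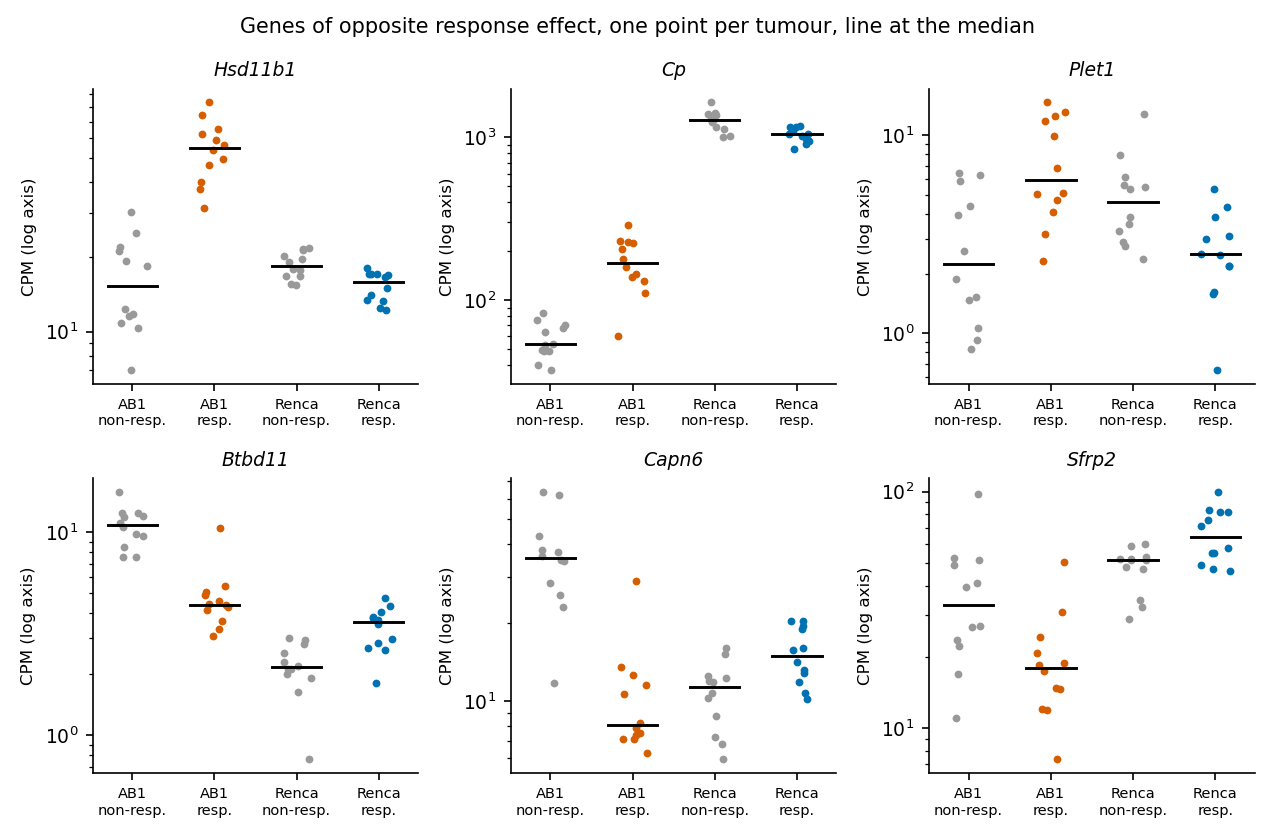
Level of 6 genes with opposed response effects, in CPM on log axes, in each of the 48 tumours (points) by group, with a line at the median of the 12 tumours of a group. Hsd11b1, Cp and Plet1 (upper row) were higher in AB1 responders and lower in Renca responders, and Btbd11, Capn6 and Sfrp2 (lower row) moved the other way, with the smaller shift in Renca in each.

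Translation genes made up a large share of the genes that were lower in AB1 responders and higher in Renca responders. Of these 133 genes, 25 encode cytosolic ribosomal proteins (18.8%, against 0.436% of all tested genes), and 56 are pseudogenes (42.1%, against 12.7%), whose reads can come from a near-identical parent gene, so their values are uncertain. The 3 of smallest p among those with gene names were Rplp0, a protein of the ribosomal stalk, Rpsa-ps9, a pseudogene of Rpsa, and Rps19, a protein of the small subunit. Rplp0 (chr5:115559467-115563727) had CPM of 1269, 1552 and 1754 in AB1 non-responders, 1091, 1191 and 1445 in AB1 responders, 689.5, 746 and 811 in Renca non-responders and 741, 808 and 947 in Renca responders. Although the groups overlapped in both lines, all 12 AB1 responders lay under the non-responder median and 11 of 12 Renca responders above it. The changes were -0.27 ± 0.05 and 0.14 ± 0.03, and the difference was -0.47 ± 0.06 (edgeR adjusted p = 1.43e-07). Rps19 changed by -0.28 ± 0.05 and 0.09 ± 0.03, Rpsa-ps9 by -0.31 ± 0.06 and 0.16 ± 0.03, and Eef1g, a subunit of the translation elongation factor 1 complex, by -0.31 ± 0.05 and 0.11 ± 0.03.

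Of 20 tested genes in a list of cytosolic ribosomal proteins, 13 fell in AB1 responders and 0 rose. In Renca responders 17 rose and 0 fell, and 11 were of opposite sign. Over all tested genes 30.1% fell and 29.6% rose in AB1, 11.6% rose and 8.01% fell in Renca, and 1.47% were of opposite sign. These shares also apply to the wider set below. The difference was lower for 19 of the 20, against 26.6% of all tested genes, with a median of -0.31 against -0.07. A wider set of 72 genes named as ribosomal proteins, chosen after these values were seen, had 37 lower and 1 higher in AB1 (median -0.11), 48 higher and 0 lower in Renca (median 0.11) and 65 with a lower difference. Together the 72 genes took 3.11%, 3.61% and 4.18% of the counts (lowest, median and highest library) in AB1 non-responders and 2.96%, 3.17% and 3.53% in AB1 responders. Their share was 2.20%, 2.31% and 2.44% in Renca non-responders and 2.31%, 2.48% and 2.81% in Renca responders. Responders and non-responders overlapped in this share within each line, and the responder medians of the lines lay closer to each other than the non-responder medians. With DESeq2 size factors in place of TMM scaling, the listed genes had the same counts in both lines, and without AB1 responder 12 there were 15 lower in AB1 and 13 of opposite sign. With the RNA purity ratios as covariates the difference was lower for 19 of the 20, while 2 were higher in Renca and 0 of opposite sign in edgeR. Over all genes in that setting 224 of 15409 passed in Renca in either direction and 17 of 16509 were of opposite sign. The purity ratios moved with response in the same libraries, and their part in the result was not tested.

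Ribosomal protein transcripts of mammals are known to start with a C followed by a run of pyrimidines, the 5′ terminal oligopyrimidine element, through which their translation is controlled together. The starts of 6 ribosomal protein genes of opposite sign are shown because they hold such a run, from 60 bases before to 40 bases from the annotated start, taken from the RefSeq promoter table of GRCm38.p6. Capitals mark a run of at least 6 C or T that begins with a C within 5 bases of the start and may extend further. C or T bases just before that first C, as in Rpl28, Rpl14 and Rpl35, are in small letters. The 100 bases lie at chr7:4792905-4793004 for Rpl28, chr9:120571457-120571556 for Rpl14 and chr7:45718011-45718110 for Rpl18, all on the plus strand. Those of Rps6 lie at chr4:86857328-86857427 on the minus strand, those of Rpl31 at chr1:39367791-39367890 on the plus strand and those of Rpl35 at chr2:39005092-39005191 on the minus strand.
Rpl28: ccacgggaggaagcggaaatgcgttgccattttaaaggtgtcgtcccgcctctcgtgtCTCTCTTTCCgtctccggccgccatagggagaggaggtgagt
Rpl14: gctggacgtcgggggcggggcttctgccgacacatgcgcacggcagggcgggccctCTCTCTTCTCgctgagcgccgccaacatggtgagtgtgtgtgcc
Rpl18: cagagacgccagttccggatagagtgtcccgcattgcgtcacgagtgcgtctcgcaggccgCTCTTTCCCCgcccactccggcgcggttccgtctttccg
Rps6: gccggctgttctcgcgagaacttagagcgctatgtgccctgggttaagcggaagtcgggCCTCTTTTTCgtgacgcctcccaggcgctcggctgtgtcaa
Rpl31: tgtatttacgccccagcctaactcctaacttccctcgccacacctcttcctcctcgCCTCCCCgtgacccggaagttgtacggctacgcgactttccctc
Rpl35: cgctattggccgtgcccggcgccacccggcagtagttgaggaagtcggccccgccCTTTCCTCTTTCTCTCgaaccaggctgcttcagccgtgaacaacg
Of the 25 ribosomal protein genes of opposite sign, 18 matched the table and these 6 held such a run, read in the sense direction (33.3%). The shares were 23 of 55 matched ribosomal protein genes (41.8%) and 1361 of 10523 matched tested genes (12.9%). Among matched genes that were higher in AB1 and lower in Renca responders 22 of 91 held one (24.2%). Rpl28 changed by -0.19 in AB1 and 0.11 in Renca, Rpl14 by -0.17 and 0.10, and Rps6 by -0.10 and 0.15. Rpl18 changed by -0.14 and 0.12, Rpl31 by -0.10 and 0.10, and Rpl35 by -0.14 and 0.09.

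The classes were also described by the level of a gene in 1 line against the other. Of the 110 genes that were higher in AB1 and lower in Renca responders, 105 (95.5%) had the higher mean level in Renca, with a median difference of 1.19 log2 CPM between the lines. Among the 133 genes of the other direction 6 (4.51%) had the higher level in Renca, with a median of -0.64, and among all tested genes 49.3% did, with a median of -0.01. For these 105 genes and for all but 6 of the 133, the responders of a line thus moved in the direction of the other line's level, as for Cp and Rplp0. Of the genes that passed in Renca only, which were chosen with a minimum level in both lines, 92.7% of those lower and 7.05% of those higher in Renca responders were at a higher level in Renca. The lean was also seen in genes of the same sign, with 82.2% of those lower and 24.1% of those higher in responders at a higher level in Renca, where AB1 responders moved away from the Renca level. It was thus not limited to genes of opposite sign. In such levels the tumour line, the day of removal and the flow cell cannot be told apart. These shares are descriptions, since levels and effects come from the same libraries.

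**Figure D3:**
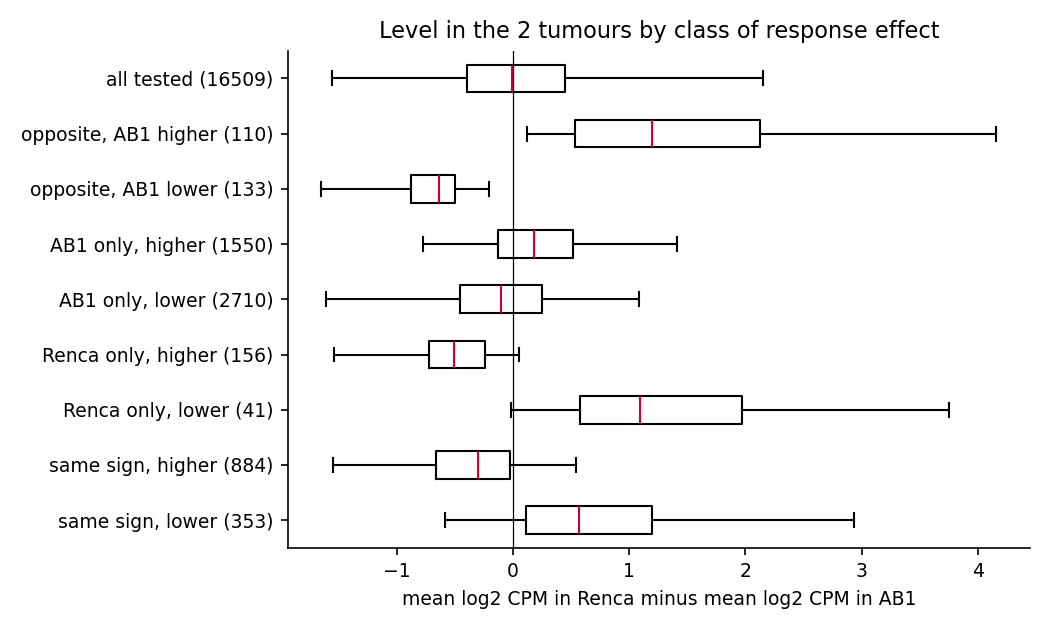
Mean log2 CPM in Renca minus mean log2 CPM in AB1 for the genes of each class of response effect, with the number of genes in parentheses. Boxes span the quartiles with the median in red, and whiskers run from the 5th to the 95th percentile. The class of opposite sign with AB1 higher lies to the right of 0 (median 1.19) and the class with AB1 lower to the left (median -0.64), while all tested genes centre on -0.01.

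Genes that passed in AB1 only were the largest class. At a mean of at least 1 log2 CPM in both lines they numbered 4260, of which 1550 were higher and 2710 lower in AB1 responders, and at any level 4994, or 30.3% of the tested genes. A missed threshold does not show that an effect is absent, so the interval of the Renca effect was taken as well. For 4089 of the 4260 its 95% interval lay within 0.5 of 0 on the log2 scale. The median size of the AB1 effect in the 4260 was 0.37, which is under that bound. The count therefore cannot show that Renca lacked an effect of that size. The AB1 effect reached 1 in 321 of the 4260, 211 higher and 110 lower, and 239 of these 321 had a Renca interval within that bound. Without AB1 responder 12 the class held 4799 genes, and within the second flow cells 2499.

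The 5 genes of smallest p that were higher in AB1 responders only were Kif3b, a motor subunit of kinesin 2, Serpinb9b, a serpin, Ostm1, a lysosomal membrane partner of a chloride transporter, Abr, a regulator of small GTPases, and Kcnab2, a beta subunit of potassium channels. Serpinb9b (chr13:33027416-33041884) had CPM of 1.41, 2.46 and 5.65 in AB1 non-responders, 5.49, 9.51 and 12.3 in AB1 responders, 173, 193 and 260.5 in Renca non-responders and 145, 187 and 243 in Renca responders. Renca tumours held far more of it than AB1 tumours whatever their outcome, and the AB1 groups overlapped at their edges. Its change was 1.78 ± 0.20 in AB1 and -0.04 ± 0.07 in Renca, where the 95% interval was -0.18 to 0.10. Kif3b changed by 0.49 ± 0.05 in AB1 with a Renca interval of -0.13 to -0.01, Abr by 0.74 ± 0.07 with one of -0.10 to 0.03, and Kcnab2 by 0.99 ± 0.10 with one of -0.11 to 0.04. All AB1 responders lay above all AB1 non-responders for Kif3b and Abr. Ostm1 changed by 0.74 ± 0.08 in AB1 and had a value of -0.07 in Renca that did not pass.

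Neutrophil genes rose mainly in AB1 responders. Of 10 tested neutrophil markers 9 rose and 1 fell in AB1 responders and 3 rose in Renca, and 7 passed in AB1 only, against 29.6%, 30.1%, 11.6% and 30.3% of all tested genes in that order. The difference was higher for 9 and lower for 1, and the median changes were 2.14 in AB1 and 0.26 in Renca. The AB1 counts were 9 and 1 without AB1 responder 12 as well. Lcn2 (chr2:32384633-32388252), which encodes a siderophore binder released by neutrophils, had CPM of 0.29, 3.62 and 11 in AB1 non-responders and 2.93, 45.7 and 137 in AB1 responders. In Renca the values were 15.5, 18 and 35.9 in non-responders and 13.4, 18.5 and 23.6 in responders. The groups overlapped in both lines, with AB1 responder 12 the lowest AB1 responder and 11 of 12 AB1 responders above their non-responder median, against 6 of 12 in Renca. The difference was 3.94 ± 0.48 (edgeR adjusted p = 7.24e-08). Cxcr2, the receptor through which neutrophils follow chemokines, changed by 2.50 in AB1 and had a value of 0.44 in Renca that did not pass. Its ligand Cxcl1 had median CPM of 7.53 and 61.4 in AB1 non-responders and responders and 10.6 and 12.4 in Renca, with changes of 2.80 ± 0.33 and 0.25 ± 0.21, the latter not passing (edgeR adjusted p = 0.419). S100a8, a subunit of calprotectin, changed by 2.11 in AB1 and had 0.18 in Renca. Mmp9, a gelatinase that osteoclasts also make in quantity, was the member that fell, by 1.65 on the log2 scale in AB1. The summed level of the list, Mmp9 included, did not rise in AB1. Its medians were 1168 CPM in AB1 non-responders and 1003 in AB1 responders, and 86.7 and 124 in Renca. The mean log2 CPM of the list had medians of 3.69 and 5.43 in AB1 and 1.96 and 2.41 in Renca.

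**Figure D4:**
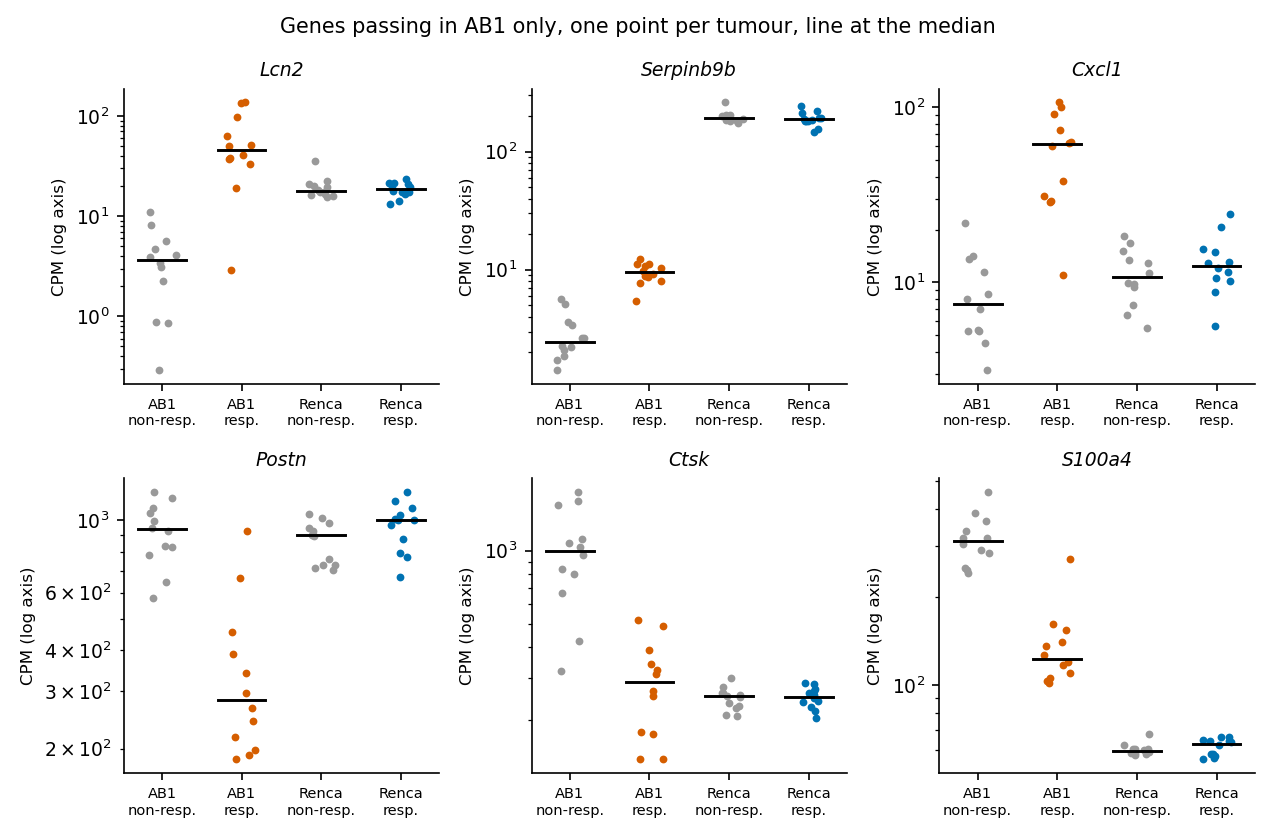
Level of 6 genes whose response effect passed in AB1 only, in CPM on log axes, in each of the 48 tumours (points) by group, with a line at the median of the 12 tumours of a group. Lcn2, Serpinb9b and Cxcl1 were higher and Postn, Ctsk and S100a4 lower in AB1 responders, while the medians of the Renca groups lie side by side.

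Genes that fell in AB1 responders only were led by Prdx2, a peroxiredoxin that removes hydrogen peroxide, Vkorc1, the vitamin K epoxide reductase, S100a4, a calcium-binding protein of motile and mesenchymal cells, Enpp1, which breaks down extracellular nucleotides, and Dap, a regulator of cell death and autophagy. S100a4 (chr3:90603771-90606045) had CPM of 243, 312 and 461 in AB1 non-responders, 101, 123 and 271 in AB1 responders, 57.7, 59.4 and 67.8 in Renca non-responders and 55.6, 62.9 and 66.2 in Renca responders. Only AB1 responder 12, at the highest responder value, reached into the AB1 non-responder range, and the Renca groups overlapped. The change was -1.14 ± 0.13 in AB1 and the Renca interval -0.03 to 0.11. Enpp1 changed by -1.35 ± 0.14 in AB1 with a Renca interval of -0.10 to 0.24, and Dap by -0.81 ± 0.10 with one of -0.03 to 0.11. Vkorc1 changed by -0.65 ± 0.07 without overlap of the AB1 groups and Prdx2 by -0.45 ± 0.05, with Renca intervals of -0.03 to 0.20 and 0.01 to 0.10.

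Matrix genes of fibroblasts fell in AB1 responders and did not pass in Renca. Of 16 tested members, 14 fell and 1 rose in AB1, 0 passed in Renca at an adjusted p under 0.05 in edgeR (DESeq2 called 1 higher and 1 lower), and the difference was lower for 13, against 26.6% of all tested genes. Their median change was -0.81 in AB1 and 0.09 in Renca. Postn (chr3:54361109-54391037), the matrix protein periostin, had CPM of 579.8, 939 and 1216 in AB1 non-responders, 185, 281 and 927 in AB1 responders, 702, 898 and 1047 in Renca non-responders and 669.6, 1001 and 1223 in Renca responders. AB1 responders 2 and 12 lay inside the AB1 non-responder range and the other 10 under it, and 8 of 12 Renca responders lay above the Renca non-responder median. The changes were -1.28 ± 0.24 and 0.17 ± 0.09, and the difference was -1.50 ± 0.26 (edgeR adjusted p = 1.4e-05). The fibrillar collagens Col1a1 and Col3a1 had differences of -0.99 ± 0.25 and -1.12 ± 0.20, and Fap, the protease that marks activated fibroblasts, one of -1.17 ± 0.22. Thy1, also made by T cells, was the member that rose in AB1, by 0.87. The summed level of the 16 genes ran from 32155 to 66141 CPM in AB1 non-responders, 17475 to 43921 in AB1 responders, 20498.5 to 46132 in Renca non-responders and 24854.9 to 58079.6 in Renca responders. Within the second flow cells the difference was lower for 1 of the 16 and the median difference was -0.42, against 13 and -1.47 within the first. Over all genes tested in those fits it was lower for 1017 of 16614 in the second and 2938 of 16697 in the first. The count of 1 in the second flow cells is thus near the share over all genes. Without AB1 responder 12, 14 fell in AB1, the difference was lower for 13, and the median change in AB1 was -1.02.

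Osteoclast genes also fell in AB1 responders. Of 9 tested members 8 fell in AB1 and 0 passed in Renca in edgeR or DESeq2, and the difference was lower for 6, against 30.1% lower in AB1 and 26.6% with a lower difference over all tested genes. The median change was -1.65 in AB1 and 0.08 in Renca, and without AB1 responder 12 the counts were again 8 and 6. Ctsk (chr3:95499256-95509362), the protease with which osteoclasts dissolve bone collagen, had CPM of 318, 997 and 1750.3 in AB1 non-responders, 138, 287 and 515 in AB1 responders, 208, 251 and 298 in Renca non-responders and 204, 250.4 and 286 in Renca responders. The AB1 groups overlapped, all 12 AB1 responders lay under their non-responder median, and the range of the AB1 responders took in that of all Renca tumours. The difference was -1.80 ± 0.28 (edgeR adjusted p = 2.84e-06). Acp5, the tartrate-resistant acid phosphatase of osteoclasts, had a difference of -2.02 ± 0.33 and Atp6v0d2, a subunit of their proton pump, one of -2.72 ± 0.46. Oscar and Calcr did not enter the Renca fit for lack of counts, so no response effect could be measured for them there. In a list of 13 tested bone and cartilage genes 6 fell in AB1, with and without AB1 responder 12, against 30.1% of all tested genes, among them Dmp1, a mineralising matrix protein, with a difference of -2.85 ± 0.50.

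Genes of cell division fell in AB1 responders. Of 19 tested proliferation genes 15 fell in AB1 and 1 in Renca, against 30.1% and 8.01% of all tested genes, and the difference was lower for 8, against 26.6%, and did not pass for 11. The count of 8 was 5 with the replicate block, 19 with the RNA purity ratios as covariates, 3 within the second flow cells and 9 without AB1 responder 12. E2f1, a transcription factor of the G1 to S transition, had a difference of -0.46 ± 0.08, and Cdk1, the kinase of mitotic entry, one of -0.42 ± 0.15, while that of Mki67, at -0.19 ± 0.15, did not pass (edgeR adjusted p = 0.305). Of 12 TGF-beta and BMP response genes 6 passed in AB1 only, against 30.3% of all tested genes, and without AB1 responder 12 the difference passed for 8. Tgfb1, the ligand made by many immune cells, rose in AB1 by 0.63 and Tgfb2, a ligand made mainly by non-immune cells, fell by 0.99, with Renca values of 0.06 and -0.02 that did not pass. Id1 and Id3, targets of BMP signalling, fell by 1.08 and 0.78 in AB1, with Renca values of -0.16 and -0.01. Pfkfb3, which raises the rate of glycolysis, had median CPM of 65.2 and 206 in AB1 non-responders and responders and 175 and 180.5 in Renca, with a difference of 1.41 ± 0.21. It was 1 of 5 genes with a higher difference among 17 of hypoxia and glycolysis (18.5% over all tested genes), beside Slc2a1, Hk2, Pfkl and Pfkfb4, and Ldha at -0.08 and Bnip3 at 0.06 did not pass. With the RNA purity ratios as covariates 12 of the 17 had a higher difference.

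Few genes passed in Renca only. There were 197 at a mean of at least 1 log2 CPM in both lines, 156 higher and 41 lower in Renca responders, and 254 at any level, or 1.54% of the tested genes. The median size of the 197 was 0.16, and the AB1 interval of 176 of them lay within 0.5 of 0. Only 8 of the 197 reached 0.5 in Renca. The bound therefore cannot show that AB1 lacked an effect as large as the Renca one. Sirt1 (chr10:63319005-63381704), an NAD-dependent deacetylase, led the rises with CPM of 8.2, 11 and 14.3 in Renca non-responders and 12.2, 15.4 and 17.2 in Renca responders, against 33, 36.3 and 42.1 and 29.3, 32.6 and 37.6 in AB1 non-responders and responders. All 12 Renca responders lay above their non-responder median, with the groups overlapping, and 10 of 12 AB1 responders lay under theirs. The changes were 0.42 ± 0.07 in Renca and -0.08 ± 0.05 in AB1, and the difference was -0.55 ± 0.08 (edgeR adjusted p = 2.15e-06). Gfpt1, the first enzyme of hexosamine synthesis, rose in Renca by 0.18 ± 0.03, and the ribosomal protein genes Rps20 and Rpl5 by 0.22 ± 0.04 and 0.15 ± 0.03. The falls were led by Tmem199, an assembly factor of the vacuolar proton pump, at -0.19 ± 0.04, Glis3, a zinc finger factor of kidney and pancreas, at -0.22 ± 0.06, Igfbp7, a secreted protein of vessels, at -0.21 ± 0.05, and Usp20, a deubiquitinase, at -0.17 ± 0.04. Their AB1 values were positive, at 0.08, 0.24, 0.19 and 0.15 in that order, and did not pass (edgeR adjusted p of 0.0518 to 0.151). The AB1 intervals of Glis3 (0.02 to 0.45), Igfbp7 (0.005 to 0.37) and Usp20 (0.007 to 0.29) lay above 0. An AB1 effect of opposite sign is thus not excluded for these genes. None of these 4 passed for the difference within the first flow cells, where the edgeR adjusted p ran from 0.12 to 0.903. Chosen after their values were seen, the 2 genes that reached 1 were the nuclear receptor Nr4a3, at 1.07 ± 0.31 in Renca and -0.06 ± 0.23 in AB1, and Gm6210, at 1.15 ± 0.38 and -0.66 ± 0.33. Of 14 blood endothelium genes, Selp, which encodes P-selectin, and Ackr1, a chemokine-binding receptor of venules, rose in Renca only, by 0.55 ± 0.17 and 0.67 ± 0.12. They were the 2 of the 14 in this class, against 1.54% of all tested genes. The list went both ways, with the difference higher for 3, lower for 4 and not passing for 7. Over all tested genes the difference was higher for 18.5% and lower for 26.6%. In Renca 3 of the 14 rose and 1 fell, against 11.6% and 8.01% of all tested genes. With the RNA purity ratios as covariates 18 genes passed in Renca only, within the first flow cells 0 and within the second 56, and without AB1 responder 12 there were 177.

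T cell, NK cell and antigen presentation genes rose in responders of both lines, and the lines differed in the size of the rise. All 19 tested T cell genes and all 18 of MHC class I presentation rose in both, and the difference was higher for 14 and 15 of them, against 18.5% of all tested genes. Of 16 cytotoxic and NK cell genes 16 rose in AB1 and 15 in Renca, and the difference was higher for 14. The median changes of the T cell genes were 1.88 in AB1 and 0.87 in Renca, and those of 13 pan-leukocyte genes, all higher in both lines and all with a higher difference, 1.26 and 0.39. Cd247, a signalling chain of the T cell receptor, had a difference of 1.18 ± 0.29, and Klrb1c, a receptor of NK cells, one of 1.46 ± 0.30. H2-D1, a classical MHC class I heavy chain, had one of 0.77 ± 0.17. The difference was higher for 7 of 23 type II interferon genes, all of which rose in both lines, against 18.5% of all tested genes. That count was 12 with the replicate block, 13 with the RNA purity ratios as covariates, 4 with no filter on low counts and 10 without AB1 responder 12. With the purity ratios, edgeR called as higher in Renca 4 of 19 T cell, 2 of 16 cytotoxic and NK cell and 1 of 13 pan-leukocyte genes. It called 0 of 18 MHC class I and 0 of 23 type II interferon genes. In that fit 224 of 15409 genes passed in Renca in either direction. The median Renca changes of these lists were 0.71, 0.76, 0.34, 0.31 and 0.69 in that order. The part of RNA purity in these calls was not tested. Without AB1 responder 12 the difference was higher for 15 T cell, 17 MHC class I and 16 cytotoxic and NK cell genes. The difference of Pdcd1, the gene of the receptor PD-1, was 0.67 ± 0.33 and did not pass (edgeR adjusted p = 0.0908), while that of Cd274, the gene of PD-L1, was 1.67 ± 0.37 and did (adjusted p = 0.000373 in edgeR). Within the second flow cells 0 of the 19 T cell genes passed for the difference in edgeR, with a median difference of 0.80 against 1.37 in the first, and the 13 pan-leukocyte genes enter the score used as a covariate above.

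Of 1237 genes with the same sign and a passing difference (7.49% of those tested), 1235 had the larger effect in AB1. The largest AB1 rises among them were those of Pdcd1lg2, the gene of PD-L2, Dnase1l3, a DNase of dendritic cells and macrophages, and Acod1, with which activated macrophages make itaconate. Pdcd1lg2 had CPM of 1.02, 5.63 and 22.6 in AB1 non-responders, 11.8, 67.7 and 126 in AB1 responders, 4.05, 5.31 and 11.7 in Renca non-responders and 5.19, 9.6 and 14.3 in Renca responders. The highest Renca responder lay near the lowest AB1 responder, and the non-responder medians of the lines were alike. The changes were 3.35 ± 0.43 and 0.77 ± 0.17, and the difference was 2.53 ± 0.46 (edgeR adjusted p = 2.38e-05). Dnase1l3 had a difference of 1.98 ± 0.46. Acod1 had one of 1.68 ± 0.65, and without Renca non-responder 3 it was 0.85 and did not pass (edgeR adjusted p = 0.223). The largest falls were those of Fcrls, a macrophage gene of the Fc receptor family, with a difference of -1.79 ± 0.43, Cspg4, the pericyte and tumour surface proteoglycan NG2, with -1.40 ± 0.24, and Atg9b, with -1.43 ± 0.44, which was -0.57 without AB1 non-responder 3. The 2 genes with the larger effect in Renca were Pak1, a kinase that acts under Rac and Cdc42, at 0.36 ± 0.07 in Renca and 0.14 ± 0.06 in AB1, and Mctp1, a calcium-binding membrane protein, at 0.70 ± 0.20 and 0.22 ± 0.08. The call of the difference was lost without 1 library in 2 of 48 fits for Pak1 and in 15 of 48 for Mctp1, for which it was also lost with the replicate block (-0.50, edgeR adjusted p = 0.0818).

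**Figure D5:**
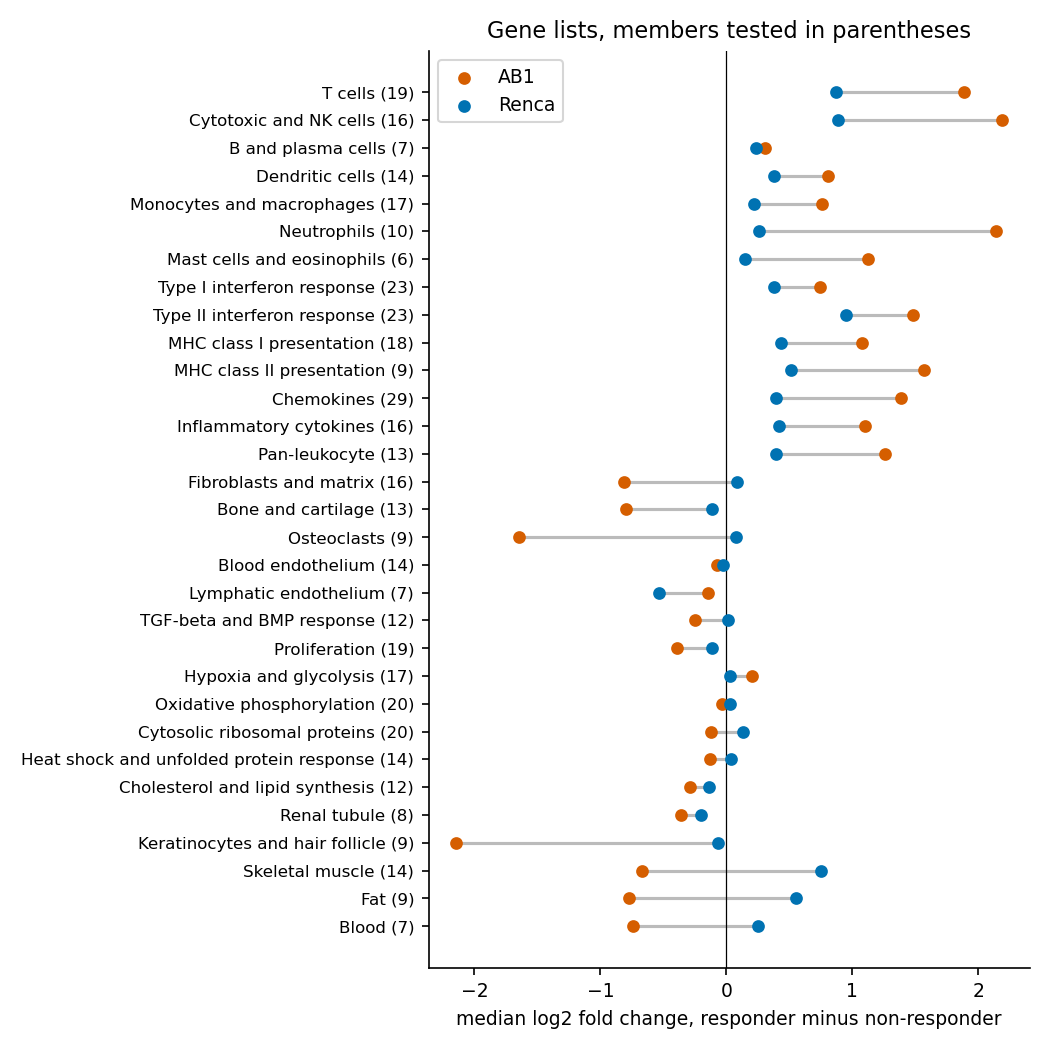
Median log2 fold change of responders against non-responders in AB1 (orange) and Renca (blue) over the tested members of each gene list, with the number tested in parentheses and lists of fewer than 5 tested members left out. Immune lists lie right of 0 in both lines with AB1 further out, as at 1.88 and 0.87 for T cells, while fibroblast and osteoclast lists lie left of 0 in AB1 only, at -0.81 and -1.65.

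A response effect is poorly measured for a gene that is low in a line, and 230 passing genes were under a mean of 1 log2 CPM in Renca only and 259 in AB1 only. The 3 of smallest p in the first set were Abcb4, a phospholipid transporter of the liver cell membrane, St18, a zinc finger factor, and Bdh2, a hydroxybutyrate dehydrogenase, with AB1 changes of -1.81 ± 0.22, -1.87 ± 0.27 and -1.78 ± 0.24. St18 had CPM of 2.33, 5.31 and 10.2 in AB1 non-responders and 0.576, 1.58 and 3.4 in AB1 responders, against 0.338, 0.694 and 0.922 and 0.692, 0.828 and 1.35 in Renca. In the second set, Igsf5, a junction protein of kidney and gut epithelium, had CPM of 54.5, 59.6 and 73.9 in Renca non-responders and 46.8, 55.6 and 60.9 in Renca responders and at most 1.09 in any AB1 tumour. It was not tested in the AB1 fit for lack of counts. Cacnb4, a calcium channel subunit, changed by 1.64 ± 0.19 in AB1 and had -0.22 ± 0.13 in Renca, and Celsr3, a cadherin of planar polarity, changed by 1.12 ± 0.21 and -0.28 ± 0.05.

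Lists of muscle and fat, tissues that border a tumour under the skin, also had medians of opposite sign, with few members passing. Of 14 tested skeletal muscle genes 1 passed in AB1 and 0 in Renca in edgeR, the difference was lower for 5, against 26.6% of all tested genes, and the median changes were -0.67 and 0.75. The difference was lower for 1 muscle gene with the replicate block or the RNA purity ratios, 2 with no filter on low counts, 0 within the second flow cells and 9 without AB1 responder 12. Ckm, the muscle creatine kinase, had CPM of 1.02, 67.3 and 321 in AB1 non-responders, 4.96, 37 and 100.1 in AB1 responders, 3.68, 43.2 and 107 in Renca non-responders and 0.269, 101 and 183 in Renca responders. All 4 groups overlapped over most of their range, and the difference of -2.09 ± 0.78 did not pass with the replicate block (-1.76, edgeR adjusted p = 0.0835). Muscle transcripts as a whole summed to 43.9 to 3940.4 CPM over the 48 tumours. Of 9 fat genes 4 had a lower difference, against 26.6% of all tested genes and also without AB1 responder 12, among them Fabp4, the adipocyte fatty acid binding protein, at -1.29 ± 0.30, and the medians were -0.77 in AB1 and 0.56 in Renca. Of 9 keratinocyte and hair follicle genes 4 fell in AB1, against 30.1% of all tested genes, and 0 passed in Renca in edgeR or DESeq2. In AB1 DESeq2 called 0 of them, the replicate block left 1, and with the RNA purity ratios as covariates 0 passed and the median turned from -2.15 to 0.22. Their summed level reached 1367 CPM in AB1 non-responders and 143.7 in AB1 responders against medians of 12.5 and 9.97. Without AB1 non-responders 3 and 7 and AB1 responder 3, which held skin transcripts, 2 of the 9 genes had a lower difference, and over all genes the difference passed for 8148, with 276 of opposite sign.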

How the data were processed

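RNA was sequenced from 48 whole mouse tumours, 12 in each of 4 groups, and the groups were taken from the titles. The authors deposited 1 table of raw read counts per Ensembl gene, 39637 genes, of which 8466 had 0 counts in all libraries. Tools listed by the submitters' processing notes are HISAT2 2.0.4, StringTie 1.3.0 and bcl2fastq 2.18.0.12. Human genome builds are listed there, although the gene IDs are those of mouse. For the counting tool, the mouse build and strand, the entry is: not given in the sources used here. Thus overlapping and antisense genes cannot be told apart. Gene names came from the deposited table. Coordinates and gene types, such as pseudogene, came from GENCODE M21 (GRCm38), which held 39461 of the IDs.

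The difference of the response effects was fitted with edgeR 4.0.16 (R 4.3.3, limma 3.58.1) by the quasi-likelihood test on all 48 libraries, with 4 groups and the flow cell within each line, TMM scaling, filterByExpr by group and Benjamini-Hochberg adjustment at 0.05 over all genes tested. Each line was also fitted alone, with its flow cells. CPM are TMM-scaled, ± values are standard errors, and the mean log2 CPM used a prior count of 2. A gene passing in 1 line only passed for the difference and in that line and not in the other. DESeq2 1.42.0 and other alternatives are given in the closing section. The scripts were tested on simulated data. Depth ran from 16.4 to 27.8 M counts per library.

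The members and gene lists were chosen with earlier results of these data known. Genes were named by smallest p of the difference among genes at a mean of at least 1 log2 CPM in both lines, leaving out unnamed models and receptor segments: 6 in each direction of opposite sign, 5 in each for AB1 only, 4 in each for Renca only, the 3 largest AB1 changes in each direction with the same sign and up to 2 larger in Renca, 3 low in each line, and the leading member of each list. Other genes beside these, other members of lists included, were chosen after their values were seen. Same-numbered mice of a line shared a sequencing lane in 12 of 12 pairs, but their residuals correlated over 0.1 in 4 pairs in AB1 and 6 in Renca, so the numbers were not taken as pairs.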

Additional observations from a re-analysis of the deposited data

Results flagged for a closer look

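Each result here was picked out by the test of the difference itself: the response effect in AB1 and that in Renca differed at an adjusted p under 0.05 in edgeR's quasi-likelihood test over 48 libraries. That held for 7441 genes, of which the named ones follow, with the difference on the log2 scale, AB1 minus Renca. Single libraries were not tested here for their distance from a group of 12, and AB1 responder 12, described above, stood apart.

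Among named genes whose effects had opposite signs, the AB1 effect was the more positive by a difference of 1.08 for Card9, 1.09 for Fuca2, 2.05 for Hsd11b1, 0.95 for Scly, 1.89 for Cp, 2.40 for Eya2, 1.35 for Celsr3, 0.59 for Flt1 and 2.24 for Plet1. Among named genes whose effects had opposite signs, the AB1 effect was the more negative by a difference of -0.47 for Rplp0, -0.52 for Rpsa-ps9, -0.43 for Rps19, -1.80 for Btbd11, -0.48 for Eef1g, -2.24 for Capn6, -2.50 for St18, -1.94 for Fbln7, -1.25 for Cpxm1 and -1.44 for Sfrp2. Among named genes that passed in AB1 only, the AB1 effect was the more positive by a difference of 0.51 for Kif3b, 1.78 for Serpinb9b, 0.76 for Ostm1, 0.72 for Abr, 0.97 for Kcnab2, 1.80 for Cacnb4, 3.94 for Lcn2, 1.04 for Oas3, 2.50 for Cxcl1, 0.65 for Il18, 0.52 for Tgfb1 and 1.41 for Pfkfb3. Among named genes that passed in AB1 only, the AB1 effect was the more negative by a difference of -0.57 for Prdx2, -0.79 for Vkorc1, -1.24 for S100a4, -1.48 for Enpp1, -0.90 for Dap, -2.20 for Abcb4, -2.10 for Bdh2, -1.50 for Postn, -1.80 for Ctsk, -0.46 for E2f1, -0.27 for Ndufv1, -0.28 for Acaca, -1.11 for Cubn and -1.29 for Fabp4. Among named genes that passed in Renca only, the AB1 effect was the more positive by a difference of 0.21 for Tmem199, 0.40 for Glis3, 0.34 for Igfbp7, 0.26 for Usp20 and 2.17 for Igsf5, which was not tested in AB1 alone. Among named genes that passed in Renca only, the AB1 effect was the more negative by a difference of -0.55 for Sirt1, -0.29 for Gfpt1, -0.34 for Rps20, -0.29 for Rpl5 and -0.37 for Dnajb1. Among named genes whose effects had the same sign, the AB1 effect was the more positive by a difference of 2.53 for Pdcd1lg2, 1.98 for Dnase1l3, 1.68 for Acod1, 1.18 for Cd247, 1.46 for Klrb1c, 0.92 for Irf8, 1.22 for Fcgr3, 1.67 for Cd274, 0.77 for H2-D1, 1.06 for H2-DMb2 and 0.90 for Vav1. Among named genes whose effects had the same sign, the AB1 effect was the more negative by a difference of -1.79 for Fcrls, -1.40 for Cspg4, -1.43 for Atg9b, -0.28 for Pak1, -0.54 for Mctp1 and -0.50 for Sdc1. Among named genes that passed in neither line alone, the AB1 effect was the more negative by a difference of -2.09 for Ckm.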

How the results depend on the processing

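Leaving out 1 library at a time gave 6820 to 8138 genes with a passing difference. With a covariate for the pan-leukocyte score, the difference passed for 2 genes, the response for 0 in AB1 (256 at an unadjusted p under 0.05 in edgeR) and 0 in Renca (492), and 0 genes were of opposite sign, 0 in AB1 only and 0 in Renca only, with no other tool run. In that fit 10 named differences changed sign: Eya2 -0.10, Dnase1l3 -0.55, Acod1 -0.42, Cd247 -0.0093, Irf8 -0.22, Cd274 -0.38, H2-D1 -0.27, H2-DMb2 -0.38, Pfkfb3 -0.016 and Acaca 0.0097. The score did not overlap between the AB1 groups. With RNA purity ratios as covariates the counts were 224 in Renca, 17 of opposite sign and 18 in Renca only. The first flow cells alone, with fewer libraries, gave 5816 in AB1, 0 in Renca (2803 unadjusted), 0 of opposite sign and 0 in Renca only. The second alone gave 3286 for the difference, 1253 in Renca, 53 of opposite sign, 2499 in AB1 only and 56 in Renca only, with 69.1% of differences more positive in AB1 against 41.0% in all libraries. With 1 spread for both lines 820 passed in Renca, 76 were of opposite sign and 73 in Renca only. The cause of these shifts was not tested. DESeq2 size factors gave 7228 differences, 47.5% more positive, DESeq2 gave 7341 with 316 of opposite sign, and no filter gave 6908 with 165. The replicate block gave 7347 differences, 8973 genes in AB1, 2746 in Renca, 251 of opposite sign, 4256 in AB1 only and 186 in Renca only, and the differences of Mctp1 and Ckm did not pass under it. Low counts limit Eya2 in AB1 and Igsf5, which had 0 to 25 counts in AB1 libraries.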
